A study of Mus musculus with 6 samples.

Results

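The transcripts of 10 integrin subunits that serve as receptors for the extracellular matrix were followed in cultured mouse chondrocytes. The subunits were taken as a list of names, with no threshold on their values: Itga1, Itga2, Itga3, Itga5, Itga10, Itga11 and Itgav encode alpha subunits, and Itgb1, Itgb3 and Itgb5 encode beta subunits. All 10 symbols were found among the 35976 genes of the deposited count table, and all 10 passed the filter on low counts that left 13761 genes for testing.

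Chondrocytes, the matrix-producing cells of cartilage, had been taken from hind limb articular cartilage of C57BL/6 x 129S4/SvJae embryos at day 18.5 and grown on tissue culture plastic in monolayer through 16 population doublings. Cells of both groups received doxycycline at 2 µg/ml throughout expansion to induce an H3.3 transgene, H3.3 being a histone variant. The H3K9M group (3 libraries, replicates 1, 3 and 5) expressed H3.3 in which lysine 9 is replaced by methionine and is labelled as having suppressed methylation of H3K9. The H3WT group (3 libraries, replicates 1, 2 and 4) expressed wild-type H3.3, so that both groups carried an H3.3 transgene and the drug. The labels do not give the promoter that drives the transgene, and they do not say whether the libraries of a group came from separate embryos, so the p-values measure the spread between these libraries.

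An integrin is a pair of an alpha and a beta subunit that spans the cell membrane, binds matrix outside the cell and couples through talin and kindlin to actin inside it. Beta 1 pairs with most of the alpha subunits described here. Its pairs with alpha 1, alpha 2, alpha 10 and alpha 11 bind collagens, its pair with alpha 3 binds laminins, and its pair with alpha 5 binds the RGD site of fibronectin. The alpha V subunit pairs with beta 1, beta 3 and beta 5 among others and binds vitronectin and other RGD proteins. In cartilage, alpha 10 beta 1 is known as a receptor for type II collagen of chondrocytes, and alpha 11 beta 1 as a collagen receptor of mesenchymal cells and fibroblasts.

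The 4 collagen-binding alpha subunits were the members that varied most between libraries, and the promoters of their genes are shown for that reason. Each window runs from 250 bases before to 50 bases after the annotated start (RefSeq, GRCm38.p6), 5′ to 3′ on the strand of the gene, with CG dinucleotides, the main site of DNA methylation in mammals, in capitals. The windows lie at chr13:115101915-115102214 (Itga1, minus strand), chr13:114932051-114932350 (Itga2, minus strand), chr3:96645334-96645633 (Itga10, plus strand) and chr9:62677605-62677904 (Itga11, plus strand).
Itga1: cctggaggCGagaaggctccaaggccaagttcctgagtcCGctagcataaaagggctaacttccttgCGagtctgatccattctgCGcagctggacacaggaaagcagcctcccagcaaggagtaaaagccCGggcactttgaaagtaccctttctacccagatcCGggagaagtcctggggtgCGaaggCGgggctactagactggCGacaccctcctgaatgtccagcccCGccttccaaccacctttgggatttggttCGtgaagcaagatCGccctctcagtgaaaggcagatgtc
Itga2: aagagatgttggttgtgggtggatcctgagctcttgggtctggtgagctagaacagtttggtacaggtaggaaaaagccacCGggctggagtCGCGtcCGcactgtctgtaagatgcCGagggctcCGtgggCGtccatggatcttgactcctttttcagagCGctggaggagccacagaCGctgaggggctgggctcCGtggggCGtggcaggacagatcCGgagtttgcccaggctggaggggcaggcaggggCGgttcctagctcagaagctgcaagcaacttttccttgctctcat
Itga10: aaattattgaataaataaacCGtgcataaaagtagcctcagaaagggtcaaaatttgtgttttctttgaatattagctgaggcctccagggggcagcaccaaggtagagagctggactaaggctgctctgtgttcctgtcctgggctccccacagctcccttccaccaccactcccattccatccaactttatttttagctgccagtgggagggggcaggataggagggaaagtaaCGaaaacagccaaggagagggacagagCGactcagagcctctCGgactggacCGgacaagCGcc
Itga11: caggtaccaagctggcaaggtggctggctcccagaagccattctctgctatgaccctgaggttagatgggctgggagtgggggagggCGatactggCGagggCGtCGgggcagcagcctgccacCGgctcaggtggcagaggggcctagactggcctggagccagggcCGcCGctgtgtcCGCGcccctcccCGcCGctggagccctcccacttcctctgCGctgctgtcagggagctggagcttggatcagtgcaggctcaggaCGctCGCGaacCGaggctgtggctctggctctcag
The Itga10 window held 6 CG dinucleotides, against 12 in Itga1, 13 in Itga2 and 16 in Itga11, and the median over the 32851 promoter windows of that table was 7. Of the 10 members 9 were matched to that table, and the first annotated windows of the other 5 held 13 to 27, Itga5 having 13 and Itgb1 27. On both strands the 4 windows were searched for GGGCGG (found in 35.7% of all windows), CANNTG (72.3%), TATAAA (13.6%), TGACTCA (5.202%), ACAAAG (18.7%) and GGAATG (14.7%). CANNTG occurred 2 times in Itga1 and 1 time in Itga11, GGGCGG 1 time in Itga2 and GGAATG 1 time in Itga10, and no matches overlapped. These matches describe the letters of the windows only.

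The libraries held 15113675 to 19606082 counts, and the members took 0.311% to 0.339% of the counts of an H3K9M library and 0.285% to 0.287% of those of an H3WT library. Libraries of a group differed widely. The first principal component of log2 CPM (read counts relative to the TMM-scaled library total) held 35.5% of the variance and placed H3WT replicates 1 (-56.2) and 4 (-51.5) at one end and H3WT replicate 2 (49.1) and H3K9M replicate 3 (51.0) at the other, with H3K9M replicates 1 (-2.82) and 5 (10.4) between them. The second component held 28.8% of the variance, and the groups did not overlap on it. It placed H3K9M replicates 1, 3 and 5 at 38.4, 39.8 and 19.0. H3WT replicates 1, 2 and 4 lay at -11.4, -71.5 and -14.4. Of 10 chondrocyte markers 9 were matched, and all 9 were tested. Their summed level was 7290.3 to 11382 CPM in H3K9M and 7186 to 18771 CPM in H3WT, beside 19480.3 to 35563 CPM and 16917 to 39749 CPM for 10 fibroblast markers, so the labelled cell type was met together with a high level of fibroblast markers. The endothelial markers summed to under 1 CPM in every library. Of 8 macrophage or blood markers 3 had no count in any library, among them Ptprc, the pan-leukocyte marker. The 8 summed to 11.4 to 22.9 CPM in H3K9M and 5.83 to 13.5 CPM in H3WT, with Cd68 up to 12.8 CPM. The 4 that were tested all had a positive log2 fold change, with 0 past an adjusted p of 0.05 (edgeR).

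Across all genes, 0 of 13761 (0%) had an adjusted p under 0.05 between the groups (edgeR quasi-likelihood test, Benjamini-Hochberg), and 1677 (12.2%) had an unadjusted p under 0.05. Among the integrin members, likewise, 0 of 10 had an adjusted p under 0.05. An unadjusted p under 0.05 was found for 1 of 10, Itga1, which was lower in H3K9M (background 5.77% lower and 6.42% higher). The CPM values of the groups did not overlap for 2 of 10, Itgb1 and Itgb5, where the share over all tested genes was 19.4% (10.7% higher, as Itgb1, and 8.68% lower, as Itgb5), so neither count stood above the background. Under other settings, 0 members were called by the DESeq2 Wald test (2.83% of all genes), with every gene of at least 1 count kept (0.18%), without H3K9M replicate 3 (0.0141%) and without H3WT replicate 2 (0.639%), while 2 were called with both of these libraries left out (2.19%, described below). With TMM scaling 5 members had a positive and 5 a negative log2 fold change (H3K9M minus H3WT, called the log2 difference below), where 49.6% of all tested genes were above 0, and with library size alone 7 were positive and 3 negative.

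**Figure D1:**
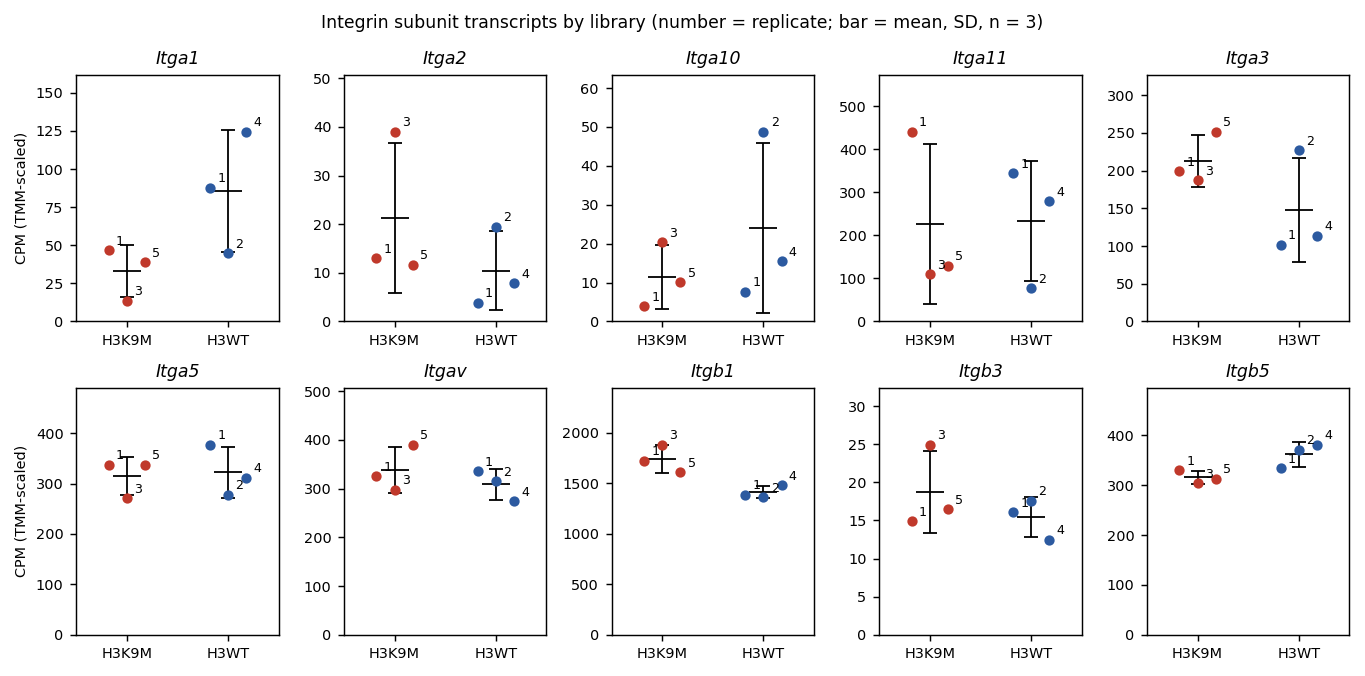
Normalised level (CPM, vertical axis from 0) of each integrin subunit in the 3 H3K9M and 3 H3WT libraries, with the replicate number beside each point and bars for mean and SD. The collagen-binding subunits Itga1, Itga2, Itga10 and Itga11 spread 5.73 to 12.4 times from the lowest to the highest library, and the groups stand apart without overlap in Itgb1 and Itgb5.

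The beta subunits set the scale of the family. Itgb1 (ENSMUSG00000025809.15, chr8:128685654-128733200 in GRCm38), the common partner, had 1724, 1880.4 and 1609 CPM in H3K9M replicates 1, 3 and 5 and 1387, 1364 and 1479.5 CPM in H3WT replicates 1, 2 and 4. Every H3K9M library lay above every H3WT library, although the lowest H3K9M value was only modestly above the highest H3WT value. The log2 difference was 0.30 (SE 0.13, 95% interval -0.01 to 0.61, adjusted p 0.415), with group means of 1738 ± 136 and 1410.3 ± 61.0 CPM (SD, n = 3 each). Leaving out a library moved the log2 fold change between 0.25 and 0.36.

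Itgb5 (chr16:33829665-33949338), a partner of alpha V in vitronectin binding, was separated the other way. It had 329.9, 304 and 314 CPM in the H3K9M libraries and 334, 372 and 381 CPM in the H3WT libraries, in the same order of replicates as above, which is kept below. The log2 difference was -0.20 (SE 0.12, 95% interval -0.46 to 0.07, adjusted p 0.522), and the gap between H3K9M replicate 1 and H3WT replicate 1 was small beside the spread within H3WT. Itgb3 (chr11:104608000-104670476), the other alpha V partner and best known from platelets and osteoclasts, was scarce, at 14.9, 24.9 and 16.5 CPM in H3K9M and 16.1, 17.6 and 12.5 CPM in H3WT. Its groups overlapped, and only H3K9M replicate 3 stood above the rest (log2 difference 0.29, SE 0.26, adjusted p 0.696). Without that library the log2 fold change was 0.04, and it was 0.16 when H3WT replicate 4 was dropped.

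As a share of the counts per kb of transcript of the 3 beta members, Itgb1 took 81.4%, 83.6% and 81.1% in H3K9M and 77.7%, 75.5% and 76.6% in H3WT. This measure was chosen after the values were seen, and it does not depend on the scaling of libraries. The group means of 82.0% ± 1.35 and 76.6% ± 1.098 (SD, n = 3 each) differed by 5.44 percentage points, and the two-sided exact permutation test gave p = 0.1, the smallest value that 3 libraries against 3 can give. The groups did not overlap, and 3 libraries against 3 without overlap always give this p. The 6 member alpha subunits other than Itgav together had 0.269 to 0.472 times the counts per kb of Itgb1 in H3K9M and 0.396 to 0.511 times in H3WT.

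The collagen-binding alpha subunits varied between libraries by 5.73 to 12.4 times, against 1.25 to 2.47 times for the other 6 members. Over all tested genes, 17.1% had a highest library at least 5 times the lowest, a limit drawn after the values were seen. Since these are bulk samples, fewer cells of a type and less RNA per cell cannot be told apart for any of them.

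Itga11 (ENSMUSG00000032243.8, chr9:62677826-62783982), the fibroblast-type collagen receptor, was the most abundant of the 4. It had 441, 109 and 129.6 CPM in H3K9M and 345, 77.1 and 279 CPM in H3WT. High and low libraries occurred in both groups: H3K9M replicate 1 and H3WT replicates 1 and 4 were high, and H3K9M replicates 3 and 5 and H3WT replicate 2 were low. The group means of 227 ± 186 and 234 ± 140 CPM (SD, n = 3 each) were nearly the same, with a log2 difference of -0.05 (SE 0.73, adjusted p 0.988). The 95% interval of -1.82 to 1.73 leaves room for more than a doubling or halving. The sign turned with library size alone (0.014) and with a GC content offset (0.013), and single libraries moved the value from -0.97 (without H3K9M replicate 1) to 0.34 (without H3WT replicate 1).

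Itga10 (ENSMUSG00000090210.7, chr3:96645584-96664519), the chondrocyte collagen receptor, ran against Itga11. It had 3.95, 20.3 and 10.1 CPM in H3K9M and 7.69, 48.8 and 15.6 CPM in H3WT. H3WT replicate 2 was the highest and H3K9M replicate 3 the next, and H3K9M replicate 1, the highest in Itga11, was the lowest. The groups overlapped (log2 difference -1.06, SE 0.83, 95% interval -3.06 to 0.94, adjusted p 0.652). Without H3WT replicate 2 the log2 fold change was -0.001, and without H3K9M replicate 3 it was -1.76. With both left out, a choice made after the data were seen, it was -0.70. In GENCODE M21 another gene model, Gm42957, covers 33.5% of the exonic bases of Itga10 on the same strand, and reads there may be counted differently under another annotation. Smaller overlaps were found for Itga1 (3.68%, with Gm49395 on the same strand) and Itgav (5.90%, with Gm13684 on the other strand), and Gm38317 resembles Itgb5 in sequence. None of these 4 other models is a row of the analysed table.

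The ratio of Itga11 to Itga10 per kb in each library put numbers on this contrast without any scaling between libraries. It was 113, 5.45 and 13.03 in H3K9M and 45.5, 1.60 and 18.2 in H3WT, so that Itga11 exceeded Itga10 in all 6 libraries but by very different factors. The log2 ratio of Itga10 to Itga11 averaged -4.32 ± 2.25 in H3K9M and -3.46 ± 2.50 in H3WT (SD, n = 3 each), a difference of -0.87 that lay well within the spread of either group (two-sided exact permutation test, p = 0.8). Its sign turned without H3K9M replicate 1 (0.38) or without H3WT replicate 2 (0.52).

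Itga1 (ENSMUSG00000042284.10, chr13:114953096-115101964), a receptor for collagens including type IV, had the smallest p of the 10. It had 46.8, 13.7 and 38.8 CPM in H3K9M and 87.7, 44.6 and 125 CPM in H3WT. H3WT replicates 1 and 4 stood above the other 4 libraries, and the groups overlapped only because H3WT replicate 2 fell just under H3K9M replicate 1. The means were 33.1 ± 17.3 and 85.6 ± 40.0 CPM (SD, n = 3 each), and the log2 fold change was -1.37 (SE 0.55, 95% interval -2.70 to -0.05, adjusted p 0.394), and its p ranked 1524 among all tested genes. It ran from -1.71 (without H3K9M replicate 1) to -0.99 (without H3K9M replicate 3).

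Itga2 (ENSMUSG00000015533.9, chr13:114833081-114932100), a collagen receptor known from platelets and epithelia, lies 21.0 kb from Itga1 on the same strand. By its mean over the 6 libraries it was the least abundant member per kb of longest transcript, though Itga10 was lower in H3K9M replicate 1 and 3 members were lower in H3K9M replicate 3. It had 12.996, 39.0 and 11.6 CPM in H3K9M and 3.87, 19.5 and 7.84 CPM in H3WT. H3K9M replicate 3, the lowest library for Itga1, was the highest for Itga2, and H3WT replicates 1 and 4, the highest for Itga1, were the lowest for Itga2. The groups overlapped (log2 difference 1.03, SE 0.70, 95% interval -0.65 to 2.71, adjusted p 0.605). The value was 0.25 without H3K9M replicate 3 and 1.87 without H3WT replicate 2.

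The order of the libraries in these 4 genes was set beside marker genes of other cell types. The 6 smooth muscle or pericyte markers (Acta2, Tagln, Myh11, Cnn1, Rgs5 and Mcam) summed to 3786, 681 and 2039 CPM in H3K9M and to 4219, 991 and 4202 CPM in H3WT. The libraries with the highest sums were those with the most Itga11, and the libraries with the lowest sums, H3K9M replicate 3 and H3WT replicate 2, had the most Itga10 and Itga2. Of these markers Rgs5 did not share this order, with 15.5, 12.7 and 12.8 CPM in H3K9M and 4.94, 12.6 and 9.25 CPM in H3WT. The 10 fibroblast markers summed to 35563, 19480 and 29147 CPM in H3K9M and to 39749, 16917 and 30367 CPM in H3WT. Their sums were high and low in the same libraries as the smooth muscle sums. Single fibroblast markers did not all share this order. Pdgfra, Vim, Dcn and Lum were instead highest in H3K9M replicate 3 and H3WT replicate 2 (Pdgfra at 236 and 243 CPM, Vim at 7364 and 6779 CPM). The chondrocyte markers summed to 7290.3, 7608 and 11382 CPM in H3K9M and to 7186, 18771 and 13314 CPM in H3WT, and were highest in H3WT replicate 2, as Itga10 was. H3K9M replicate 3, the next highest library for Itga10, had one of the lower chondrocyte sums (7608 CPM). All 9 of these markers had a negative log2 fold change (median -0.61), as Itga10 had, with 0 past an adjusted p of 0.05 (edgeR). The Itga10 value was -0.001 without H3WT replicate 2, the library with the highest marker sum, and -0.70 with H3K9M replicate 3 left out as well. No fold change without H3WT replicate 2 is given for the markers. The part of these markers in the integrin values was not tested.

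**Figure D2:**
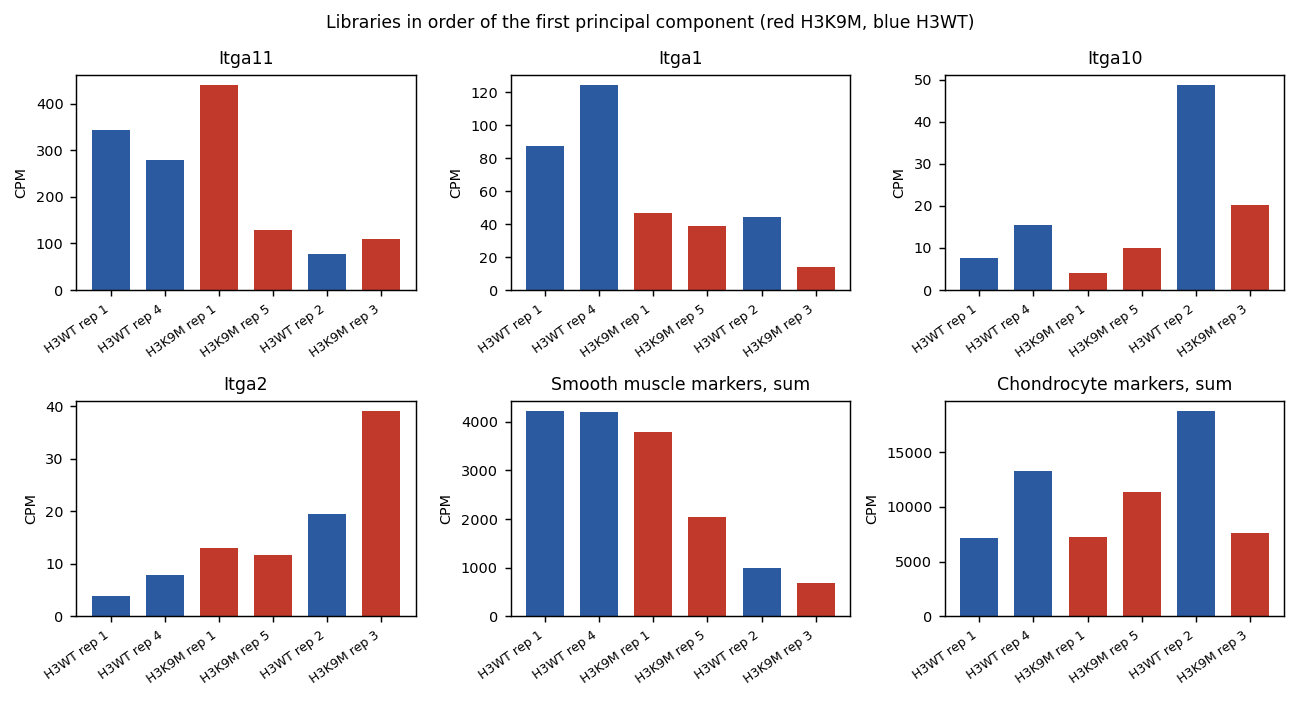
Levels (CPM, axis from 0) of the 4 collagen-binding alpha subunits and the summed levels of smooth muscle and chondrocyte markers, with the libraries in order of the first principal component from left to right (red H3K9M, blue H3WT). Itga11 and the smooth muscle sum are low in H3WT replicate 2 and H3K9M replicate 3, at the right, where Itga10 and Itga2 have their highest values.

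The laminin receptor subunit Itga3 (ENSMUSG00000001507.16, chr11:95044474-95076801) had 199.6, 187 and 252 CPM in H3K9M and 102, 227 and 114 CPM in H3WT. The 3 H3K9M libraries lay close together, and H3WT replicate 2 lay among them while H3WT replicates 1 and 4 were lower. The means were 213 ± 34.4 and 148 ± 68.9 CPM (SD, n = 3 each; log2 difference 0.53, SE 0.31, 95% interval -0.19 to 1.25, adjusted p 0.523). Dropping H3WT replicate 2 raised the log2 difference to 0.99, and dropping H3WT replicate 1 or 4 lowered it to 0.32 or 0.37.

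The fibronectin receptor subunit Itga5 (ENSMUSG00000000555.8, chr15:103344286-103366763) was nearly even across the cultures, at 337, 271 and 337 CPM in H3K9M and 377, 278 and 312 CPM in H3WT. The 2 lowest libraries, H3K9M replicate 3 and H3WT replicate 2, belonged to different groups. The log2 difference was -0.03 (SE 0.16, adjusted p 0.961), and the 95% interval of -0.39 to 0.33 limits a difference in either direction far more closely than in the collagen-binding subunits. Its sign turned with library size alone (0.025), with a GC content offset (0.043), without H3K9M replicate 3 (0.08) and without H3WT replicate 1 (0.10).

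Itgav (ENSMUSG00000027087.11, chr2:83724397-83806916), the alpha subunit of the vitronectin receptors, had 326, 297 and 390.0 CPM in H3K9M and 336, 316 and 274 CPM in H3WT. H3K9M replicate 5 was highest, H3WT replicate 4 lowest, and the other 4 libraries lay between them with the groups mixed. The log2 difference was 0.13 (SE 0.15, 95% interval -0.21 to 0.47, adjusted p 0.773). It came to 0.02 or 0.05 when H3K9M replicate 5 or H3WT replicate 4 was dropped, and to 0.22 or 0.20 for H3K9M replicate 3 or H3WT replicate 1.

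**Figure D3:**
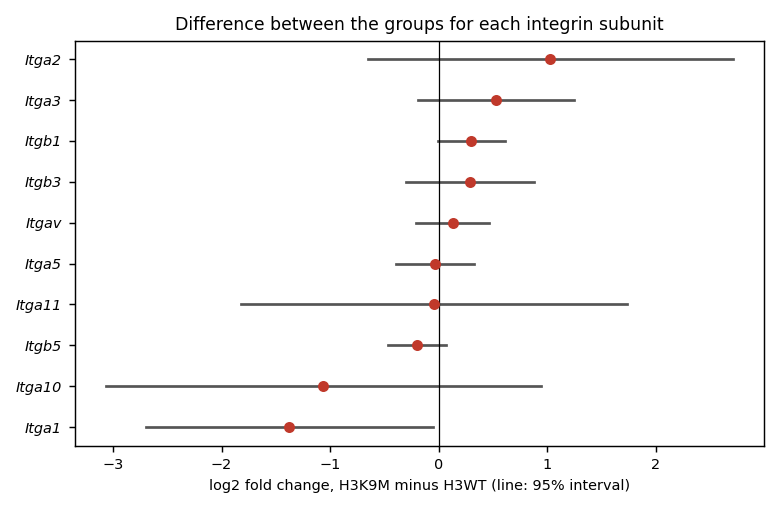
Log2 fold change of each integrin subunit between H3K9M and H3WT (points) with its 95% interval (lines), from the fit over all 13761 genes. The interval of Itga1 lies below 0 without a passing adjusted p (0.394), the intervals of the other 9 include 0, and those of Itga2, Itga10 and Itga11 are the widest.

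The fit was also made without H3K9M replicate 3 and H3WT replicate 2, which lay together on the first principal component. On the second component they lay at opposite ends (39.8 and -71.5). With both left out, a choice made after the data were seen and leaving 2 libraries a group, 302 of 13821 genes (2.19%) had an adjusted p under 0.05, and 2 of the 10 members did, Itga1 and Itga3. The log2 fold change was -1.30 for Itga1 (SE 0.20, adjusted p 0.0204) and 1.08 for Itga3 (SE 0.15, adjusted p 0.0197), and it was 1.09 for Itga2 (SE 0.38, adjusted p 0.179). For Itga10 it was -0.70 (SE 0.51, adjusted p 0.530). Neither Itga1 nor Itga3 passed with H3K9M replicate 3 or H3WT replicate 2 alone left out.

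Levels of different genes were compared per kb of the longest GENCODE M21 transcript. Itgb1 led in all 6 libraries, with 358 to 493 CPM per kb, followed in all 6 by Itgb5 with 92.6 to 116 CPM per kb. Itga5 had 61.4 to 85.4 CPM per kb and was the leading alpha subunit in 5 of 6 libraries, H3K9M replicate 1 having more Itga11 (88.8 CPM per kb against 76.4). This lead depends on the length used. The longest transcript has 7054 bases for Itgav and 4415 for Itga5, but the mean over coding transcripts is 3087 and 4382 bases. Division by that mean would put Itgav above Itga5, so the order of members given here holds for the longest transcript only. Itga11 (15.5 to 88.8), Itgav (38.8 to 55.3) and Itga3 (21.0 to 51.8) followed with ranges that overlapped, so their order was not fixed. A gap separated them from the scarce members, since the highest CPM per kb of Itga1 was 11.4, of Itga10 9.68, of Itga2 5.49 and of Itgb3 4.31. These last 4 also overlapped in range, and their order changed from library to library.

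The composition of the alpha subunits followed from these levels. Of the summed counts per kb of longest transcript of the 7 alpha members, Itga5 took 29.5% to 36.6% of a library and Itgav 17.8% to 25.5%. Both shares depend on the length used. The share of Itga11 ran from 8.32% in H3WT replicate 2 to 34.2% in H3K9M replicate 1, and that of Itga3 from 8.99% in H3WT replicate 1 to 25.0% in H3WT replicate 2. H3WT replicate 2 had the lowest share of Itga11 and the highest share of Itga3, and both extremes of Itga3 fell in the H3WT group.

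The share of Itga1 was 1.64%, 0.713% and 1.63% in H3K9M and 3.42%, 2.18% and 5.55% in H3WT, and here the groups did not overlap. Its means of 1.33% ± 0.53 and 3.72% ± 1.70 (SD, n = 3 each) differed by -2.39 percentage points (two-sided exact permutation test, p = 0.1, the smallest possible, and 0.7 after Benjamini-Hochberg adjustment over the 7 shares). The size of this difference depended on the length used, and it was -4.75 percentage points with no division by length and -1.86 with the mean length of coding transcripts. For the other 6 shares the exact p ran from 0.4 (Itga3) to 1 (Itga11).

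**Figure D4:**
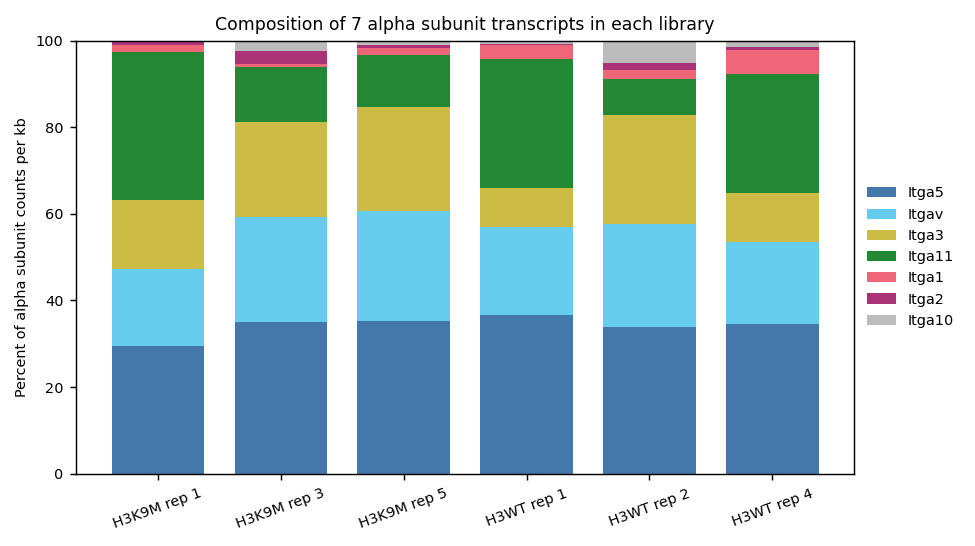
Share of each of the 7 alpha subunits (percent of their summed counts per kb, stacked to 100) in the 3 H3K9M and 3 H3WT libraries. With the longest transcript as length, Itga5 keeps 29.5% to 36.6% of every library, while Itga11 ranges from 8.32% to 34.2% with high and low libraries in both groups.

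The remaining 17 integrin subunit genes were all in the table, 10 of them tested, and 0 had an adjusted p under 0.05. Of those 10, 8 had a positive and 2 a negative log2 fold change, and their median was 0.53 against -0.0029 over all tested genes. Leaving out H3WT replicate 1 or H3K9M replicate 3 lowered this median to 0.27 or 0.31, and leaving out H3K9M replicate 5 or H3WT replicate 2 raised it to 0.81 or 1.03. Itga7, the laminin receptor subunit of muscle, had 32.0, 32.8 and 16.6 CPM in H3K9M and 12.0, 12.8 and 14.6 CPM in H3WT (log2 difference 1.05, SE 0.28, adjusted p 0.239). The groups did not overlap, and H3K9M replicates 1 and 3 were highest. The 8 skeletal muscle markers summed to 155, 226 and 21.2 CPM in H3K9M and to 31.7, 11.1 and 25.8 CPM in H3WT. The H3WT sums were mostly Acta1 in replicates 1 (26.2 CPM) and 4 (24.0 CPM), and Acta1 overlapped between the groups. Of the 4 tested markers the other 3, Myod1, Des and Myh3, were higher in every H3K9M library than in any H3WT library, each with an unadjusted p under 0.05 but adjusted p of 0.244 to 0.255 (edgeR). Over all tested genes, 10.7% were higher in H3K9M without overlap, and 6.42% were higher with an unadjusted p under 0.05. Myod1 (0, 20 and 0 counts in H3WT) and Myh3 (12, 0 and 0 counts) passed the filter on low counts only through their H3K9M libraries. Their direction was thus set in part by the filter, and a comparison with these shares gives it no support. Myod1, a regulator of muscle identity, had 19.5, 57.0 and 4.29 CPM in H3K9M and 0, 1.04 and 0 CPM in H3WT. The untested Myog and Ttn were also higher in every H3K9M library, but had only 4 and 5 counts in H3K9M replicate 5. Myf5 had no count in any library. The part of these markers in the Itga7 value was not tested.

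Itga8, which binds nephronectin and other RGD proteins, had 6.10, 2.71 and 1.79 CPM in H3K9M and 18.02, 5.03 and 21.97 CPM in H3WT (log2 difference -2.10, SE 0.65, adjusted p 0.286). As with Itga1, only H3WT replicate 2 lay among the H3K9M libraries. Itgb7, a leukocyte beta subunit, had 13.1, 20.003 and 16.7 CPM in H3K9M and 7.75, 12.1 and 8.66 CPM in H3WT, without overlap (log2 difference 0.80, SE 0.27, adjusted p 0.305). Itga7 and Itgb7 were the only 2 of the 10 tested subunits without overlap, where the share over all tested genes was 19.4%. The leukocyte alpha subunits gave few reads or none. Itgae and Itgam had no count, Itgad at most 2, Itgal at most 8 and Itgax 23 counts in H3K9M replicate 3 only. Itgb2, another leukocyte beta subunit, had 16, 38 and 15 counts in H3K9M and 0, 40 and 7 counts in H3WT. Itga6, a laminin receptor subunit chosen after its values were seen, had 38.5, 124 and 66.7 CPM in H3K9M and 17.9, 78.7 and 17.0 CPM in H3WT, which shared with Itga3 the low H3WT replicates 1 and 4.

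Among 12 collagen genes that encode ligands of these receptors, all tested, 0 had an adjusted p under 0.05, 10 log2 fold changes were negative and 2 positive, and the median was -0.17. That median was 0.10 without H3K9M replicate 3 and 0.07 without H3WT replicate 1, and -0.28 to -0.35 without H3K9M replicate 1 or 5 or H3WT replicate 2. Col9a1, a cartilage collagen on the surface of type II fibrils, had 25.2, 38.1 and 68.6 CPM in H3K9M and 38.3, 291 and 161 CPM in H3WT (log2 difference -1.89, SE 0.75, adjusted p 0.395), with the highest value in H3WT replicate 2, as for Itga10. Col6a1 and Col6a2, chains of the pericellular type VI collagen, did not overlap between the groups, with log2 fold changes of -0.33 (SE 0.15, adjusted p 0.440) and -0.32 (SE 0.16, adjusted p 0.456). These were the only 2 of the 12 without overlap, where the share over all tested genes was 19.4%.

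Of 18 genes for RGD and laminin ligands 16 were tested, 0 had an adjusted p under 0.05, and 10 had a negative and 6 a positive log2 fold change (median -0.23). Leaving out H3WT replicate 1 or H3K9M replicate 3 brought this median to -0.07 or -0.14, and leaving out H3WT replicate 2 or H3K9M replicate 1 brought it to -0.36 or -0.35. Lama4, a laminin alpha chain, had 61.0, 43.1 and 46.0 CPM in H3K9M and 105, 67.0 and 115 CPM in H3WT, without overlap (log2 difference -0.94, SE 0.23, adjusted p 0.222). Ibsp, an RGD protein of mineralised tissue, had 1.88, 3.04 and 0.867 CPM in H3K9M and 8.08, 5.45 and 11.96 CPM in H3WT, also without overlap (adjusted p 0.227). Edil3, an RGD ligand of alpha V integrins, was separated the other way, with 108, 296 and 124 CPM in H3K9M and 47.0, 78.9 and 69.4 CPM in H3WT (log2 difference 1.44, SE 0.42, adjusted p 0.280). Of the 16 tested genes 2 were higher and 3 lower in H3K9M without overlap, against 10.7% and 8.68% of all tested genes.

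Fn1, the fibronectin ligand of alpha 5 beta 1, was looked up after its values were seen. It had 16981, 22113 and 19009 CPM in H3K9M and 14725, 13783 and 14315 CPM in H3WT, without overlap (log2 difference 0.44, SE 0.18, adjusted p 0.382). The receptor subunit Itga5 showed no such separation, while H3K9M replicate 3 was the highest library for both Fn1 and Itgb1.

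Of 30 genes of the adhesion complex, which links integrin tails to actin and to kinases, 28 were tested and 0 had an adjusted p under 0.05, with 17 negative and 11 positive log2 fold changes and a median of -0.09, which moved to -0.19 when H3WT replicate 2 was dropped, to -0.06 for H3WT replicate 4, to -0.17 for H3K9M replicate 1 and to -0.16 for H3K9M replicate 5. Pxn, the adaptor paxillin, had 109, 149 and 128 CPM in H3K9M and 89.7, 93.8 and 99.3 CPM in H3WT, without overlap (log2 difference 0.45, SE 0.14, adjusted p 0.280). Nedd9, a scaffold of the Cas family, had a log2 difference of -0.58 (SE 0.21, adjusted p 0.338) and Tns3, a tensin, -0.41 (SE 0.16, adjusted p 0.368). In this list 1 of 28 genes was higher and 2 were lower in H3K9M without overlap, against 10.7% and 8.68% of all tested genes.

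Of 26 integrin regulators 24 were tested and 0 had an adjusted p under 0.05, with 14 positive and 10 negative log2 fold changes and a median of 0.05. The median was 0.12 with library size alone, and 0.09 to 0.19 without H3K9M replicate 3 or 5 or any 1 of the H3WT libraries, highest without H3WT replicate 4. Without overlap, 4 of the 24 were higher in H3K9M and 0 lower, against 10.7% and 8.68% of all tested genes. Cd63, a tetraspanin, had 337, 379 and 306 CPM in H3K9M and 253, 230.5 and 249.96 CPM in H3WT, without overlap (log2 difference 0.48, SE 0.13, adjusted p 0.236). Cav1, the caveolin through which integrins are taken up, had a log2 difference of 0.55 with overlapping groups (SE 0.20, adjusted p 0.338). Itgb3bp, a nuclear protein first named as a beta 3 binding partner, had 3.95, 4.83 and 3.67 CPM in H3K9M and 1.63, 1.97 and 1.77 CPM in H3WT (log2 difference 1.21, SE 0.44, adjusted p 0.338).

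Genes with the library pattern most like a member were found by Pearson's r of log2 CPM over the 6 libraries, which is a description of 6 points and carries no test. For Itga10 they were Tlr4 (r 0.992), Spryd4 (r 0.992) and Zfp280c (r 0.991), and 52 tested genes had an r above 0.95. These 3 genes spread only 2.03 to 2.42 times between libraries, against 12.4 times for Itga10. For Itga11 they were Gzme (r 0.995), Dpep1 (r 0.994) and Mrc2 (r 0.987), and for Itga5 Sema4c (r 0.995), Bzw2 (r 0.990) and Tsen34 (r 0.989), with 37 genes above 0.95 in either case. Gzme had between 0 and 54 counts in a library, so its pattern rests on few reads. Mrc2 spread only 1.28 times between libraries and Dpep1 7.18 times, against 5.73 times for Itga11.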

How the data were processed

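Polyadenylated RNA of 6 libraries was sequenced from Tecan Universal Plus mRNA-Seq libraries, per the labels' protocols. The authors deposited whole-number counts, not normalised, for each gene symbol and library. The submitters' processing notes name HISAT2, featureCounts, DESeq2 and the build mm10, and the annotation and strand setting are not given in the sources used here. Each column name equalled 1 sample title, and groups came from the titles. Over genes, chi-square per degree of freedom between libraries of a group was 28.3 to 122, so all were counted as separate samples.

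The test was run in edgeR 4.0.16 under R 4.3.3: filterByExpr defaults, TMM scaling, a robust quasi-likelihood fit over the 6 libraries with group as the only term, and Benjamini-Hochberg adjustment over all 13761 genes at a threshold of 0.05. The SE is the log2 fold change divided by the root of the F statistic, and its 95% interval uses the t distribution at the fit's degrees of freedom. Log2 CPM used a prior count of 2. The longest transcript of each symbol in GENCODE M21 gave length and GC content (94.3% of tested genes), and blastn 2.17.0 compared member transcripts. Promoter windows came from RefSeq. Alternatives were DESeq2 1.42.0, limma-voom (limma 3.58.1), other scalings, filters, a GC offset and each library left out.

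The members were a list of names, and no value entered the rule, but members and lists were chosen with earlier results of these data known. All members were named. Of each list without a passing gene, the 3 genes with the smallest p were named. Genes alike were named for Itga10, Itga5 and Itga11.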

Additional observations from a re-analysis of the deposited data

How the results depend on the processing

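No paired analysis was possible because the groups share only 1 replicate number. The count of genes past the threshold, 0 in the reported fit, was 390 with the DESeq2 Wald test, 36 when all genes with at least 1 count were kept, and 0 to 91 when a library was left out (91 without H3WT replicate 2, 2 without H3K9M replicate 3). It was 302 with H3K9M replicate 3 and H3WT replicate 2 both left out, a setting chosen once the values were known. Of the integrin members, 2 passed in that setting and 0 in the other alternatives. At an unadjusted p under 0.05 there were 0 to 3 members over all settings.

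The log2 fold changes of 8 members kept their sign in all 15 alternatives. For Itga11 the sign turned with library size alone (0.014), with the GC content offset (0.013) and when a library was left out (range -0.97 to 0.34). For Itga5 it turned with library size alone (0.025), with the GC content offset (0.043) and when a library was left out (range -0.12 to 0.10). Differences in alpha shares (percentage points, H3K9M minus H3WT) ran, over the fits without a library, from -2.66 to 0.23 for Itga5, -0.018 to 1.20 for Itga2, -9.53 to 1.72 for Itga11, -0.17 to 3.68 for Itgav and -2.17 to 0.10 for Itga10, and changed sign there, while those of Itga1 (-3.16 to -1.47) and Itga3 (2.35 to 10.4) did not. The log2 ratio of Itga10 to Itga11 differed by -1.89 to 0.52. The share of Itgb1 among beta members stayed higher in H3K9M in all 9 alternatives (differences of 4.11 to 5.98 percentage points). The groups did not overlap in the shares of Itgb1 and Itga1, so leaving out libraries could not turn the sign of either. The causes were not tested.

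With 3 libraries a group, an exact permutation test cannot go below p = 0.1. Depth was lowest for Itga10 (59 counts in H3K9M replicate 1) and Itga2 (69 counts in H3WT replicate 1).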
